A study of Sus scrofa with 8 samples.

Results

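The NF-κB family and its regulators were followed as 10 genes in porcine induced pluripotent stem cells (piPSCs) with and without added IRF-1. They were the subunit genes RELA, NFKB1, NFKB2, REL and RELB, the inhibitor genes NFKBIA and NFKBIE, the nuclear cofactor gene BCL3, the kinase gene IKBKE and the ubiquitin-editing enzyme gene TNFAIP3. Members were taken as the rows of the authors' RNA-seq count table whose Ensembl identifier carried one of these symbols in the pig gene names. All 10 were found among the 24358 genes of the table, and all 10 were among the 13250 genes with enough counts to be tested.

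NF-κB is a dimeric transcription factor. RELA, REL and RELB proteins carry a transactivation domain, whereas NFKB1 and NFKB2 encode precursors that are processed to DNA-binding partners without one. In resting cells the dimers are held in the cytoplasm by IκB proteins, which IκB kinases mark for degradation when receptors of the TNF, interleukin-1 or Toll-like families are engaged. RELA and NFKB1 are the usual pair of this canonical route, and RELB with NFKB2 that of the slower noncanonical route. Several of the regulators, among them NFKBIA, TNFAIP3, BCL3 and RELB, are also known transcriptional targets of NF-κB.

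The cells were DOX-hLIF-2i piPSCs, obtained from porcine embryonic fibroblasts (PEFs) carrying an OCT4-tdTomato reporter by lentiviral OSKM (OCT4, SOX2, KLF4 and MYC) under doxycycline control. Both groups therefore shared the reporter, the doxycycline-dependent factors and a feeder culture with human LIF, porcine LIF and the 2i inhibitors CHIR99021 and PD0325901, while the sample labels name an LCDMV culture system. The IRF-1 overexpressing cells (replicates 1 and 3) received PB-CAG-IRF1-Flag, in which the CAG promoter drives a Flag-tagged IRF1, together with a piggyBac transposase plasmid, and the control cells (replicates 6 and 8) received PB-CAG-Flag. Puromycin selection and passaging followed for each, and feeder cells were reduced before lysis by letting them attach for 1 h. Every label gives overexpression as the genotype, so the groups were taken from the legend of the study instead.

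Oligo(dT)-selected RNA was sequenced, and the overexpressing libraries were the deeper ones. Their mitochondrial share of the counts was also higher, at 8.62% and 7.57% in replicates 1 and 3 against 6.29% and 6.68% in control replicates 6 and 8. A single count was worth 0.0402 and 0.0481 CPM (counts scaled to library size and TMM factor) in overexpressing replicates 1 and 3, and 0.064 and 0.0571 CPM in control replicates 6 and 8. A floor of 3 counts lay between 0.121 and 0.192 CPM and covers counting error only. IRF1 was read first, since it checks the groups. Its counts were 8206 and 5485 in the overexpressing replicates and 55 and 56 in the controls, without separating introduced from endogenous transcripts. Within each pair the counts varied beyond sampling error, at a chi-square over its degrees of freedom of 17.9 (overexpressing) and 31.3 (controls). Nothing in the labels or methods states that the libraries of a group came from separate cultures. The p-values below therefore set each group difference against a spread between these libraries that may be technical.

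A gene counted as higher or lower when edgeR's quasi-likelihood test gave an adjusted p under 0.05 over all 13250 genes and the log2 fold change reached 1 in either direction. Of the 10 members, 1 fell in the IRF-1 overexpressing cells (RELB) and 0 rose, against 10.6% of all genes tested that were lower and 8.61% that were higher. At an unadjusted p under 0.05 there were 1 member with a positive and 4 with a negative fold change, and both DESeq2 and limma-voom gave 0 members higher. An adjusted p under 0.05 regardless of fold was reached by 3 members, all lower, against 29.4% of all genes tested in either direction. The median log2 fold change of the members was -0.61, beside -0.0016 over all genes tested. A share of 1 in 10 called lower is close to the background, so the count does not set the members apart from other genes.

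All 10 members were separated between the groups in CPM, but this was common. Both overexpressing libraries were above both controls for 2 members (NFKB1 and BCL3), an order seen in 34.8% of all genes tested, and below both controls for 8 members, an order seen in 33.8%. For 8 of the 10 the fitted log2 fold change was under 1 in size. With 2 libraries against 2, an exact two-sided permutation test of a single gene stops at 0.33, and the small p-values here come from variance information that edgeR borrows from other genes.

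**Figure D1:**
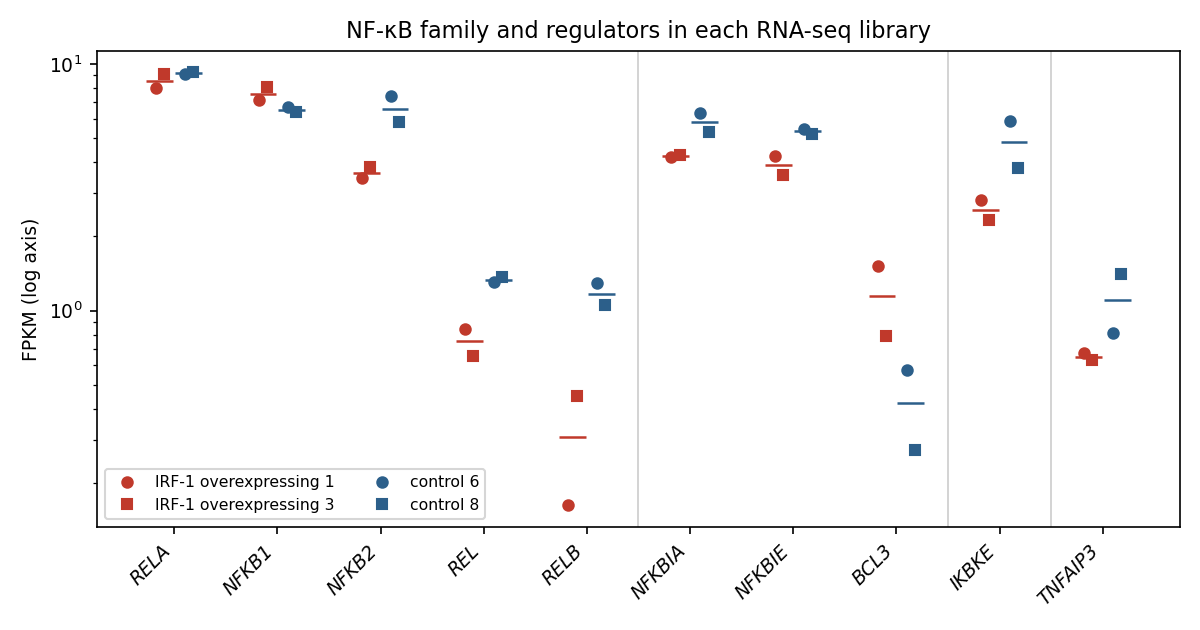
Level of each member in each library, in FPKM (CPM per kilobase of exon) on a log axis, with IRF-1 overexpressing libraries in red, control libraries in blue, and a horizontal line at the mean of each group. RELB in overexpressing replicate 1 is the lowest value, at 0.163 FPKM.

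The levels of the members, which can be set against one another only per length, formed an upper and a lower tier on the FPKM scale. RELA and NFKB2 share exon bases with other genes, as given below, so their levels may depend on how shared reads were counted. In the control cells RELA was highest at 9.17 ± 0.0938 FPKM (SD, n = 2), apart from the next gene in both libraries. NFKB2 at 6.59 ± 1.12 FPKM and NFKB1 at 6.52 ± 0.202 FPKM followed (SD, n = 2), and their libraries overlapped. NFKBIA, NFKBIE and IKBKE came next with levels between 4.84 and 5.82 FPKM, each overlapping its neighbour. A gap then led to REL at 1.34 FPKM, RELB at 1.17 FPKM and TNFAIP3 at 1.11 FPKM, with the libraries of TNFAIP3 overlapping those of both, and BCL3 was lowest at 0.424 ± 0.214 FPKM (SD, n = 2).

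In the IRF-1 overexpressing cells RELA at 8.52 ± 0.797 FPKM and NFKB1 at 7.58 ± 0.652 FPKM overlapped at the top of the order (SD, n = 2). NFKB2, at 3.62 ± 0.26 FPKM, ranked behind NFKBIA and NFKBIE and overlapped with NFKBIE (SD, n = 2). At the low end the order differed from that of the controls, with BCL3 at 1.15 ± 0.511 FPKM ahead of REL and TNFAIP3, and RELB last at 0.308 ± 0.205 FPKM (SD, n = 2). BCL3 overlapped with REL and REL with TNFAIP3, whereas RELB lay below TNFAIP3 in both libraries.

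RELB (ENSSSCG00000038879), the transactivating partner of processed NFKB2, lies on the plus strand of chromosome 6, from 51444715 to 51480319. Reads on it numbered 9 and 21 in the overexpressing replicates 1 and 3 and 45 and 41 counts in control replicates 6 and 8. Scaled to the library, this was 0.686 ± 0.457 CPM against 2.61 ± 0.379 CPM (SD, n = 2 each). Both overexpressing libraries were below both controls, and replicate 1 was the lower of the pair although it was the most deeply sequenced library. The log2 fold change was -1.94 (standard error 0.551, 95% interval -3.22 to -0.66, adjusted p = 0.0332). This call rested on few counts and on single libraries. Without overexpressing replicate 1 the log2 fold change was -1.35 (adjusted p = 0.218), without control replicate 6 it was -1.79 (adjusted p = 0.0822), and the adjusted p ranged from 0.00377 to 0.218 over the alternatives.

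NFKB2 (ENSSSCG00000010580; chromosome 14, plus strand, 113405991 to 113414326), whose precursor is cut to the noncanonical partner of RELB, was better counted. Its counts were 328 and 304 in the overexpressing replicates and 443 and 389 in the controls, although the overexpressing libraries were deeper. In CPM this was 13.9 ± 0.999 against 25.3 ± 4.32 (SD, n = 2 each), with both overexpressing libraries below both controls. A log2 fold change of -0.86 (standard error 0.208, 95% interval -1.35 to -0.38, adjusted p = 0.0179) passed the adjusted p but not the fold limit. When control replicate 8 was left out it became -1.02 and was called lower. Over the alternatives the log2 fold change lay between -1.02 and -0.68, and the adjusted p did not stay under 0.05 in all of them.

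The exons of NFKB2 share 1591 of 3838 bases with PSD on the opposite strand, and the strand setting of the counting is not given in the sources used here. PSD counts were 103 and 51 with IRF-1 and 12 and 14 without, so it moved the other way. Reads in the shared bases cannot be told apart between these genes.

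NFKB1 (ENSSSCG00000030957; chromosome 8, minus strand, 118390630 to 118507052) encodes the precursor of the canonical partner of RELA. Reads numbered 737 and 697 in the overexpressing replicates and 434 and 465 in the controls, or 31.6 ± 2.72 CPM against 27.2 ± 0.84 CPM (SD, n = 2 each). The overexpressing libraries were the higher ones without overlap, but the distance was small beside their own spread. A log2 fold change of 0.22 (standard error 0.167, 95% interval -0.17 to 0.61, adjusted p = 0.374) did not pass the test.

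RELA (ENSSSCG00000012981; chromosome 2, plus strand, 6594279 to 6606866), the main transactivating subunit in many cell types, was the most abundant member per length. Its counts were 1178 and 1126 in the overexpressing replicates and 848 and 963 in the controls. In CPM this was 50.7 ± 4.75 against 54.6 ± 0.559 (SD, n = 2 each), and overexpressing replicate 3 nearly reached control replicate 6, at 54.1 and 54.2 CPM. The log2 fold change was -0.11 (standard error 0.145, 95% interval -0.44 to 0.23, adjusted p = 0.622), so the interval lay within the fold limit on both sides. RELA shares 1987 of 5956 exon bases with SIPA1 on the opposite strand, whose counts were 42 in both overexpressing replicates, 258 in control replicate 6 and 121 in control replicate 8.

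REL (ENSSSCG00000008388; chromosome 3, minus strand, 80872286 to 80911959), a subunit best known from lymphoid cells, was counted 129 and 84 times in the overexpressing replicates and 125 and 147 times in the controls. This was 4.61 ± 0.815 CPM against 8.2 ± 0.286 CPM (SD, n = 2 each). Both overexpressing libraries were low and the controls lay close together, but the log2 fold change of -0.83 (standard error 0.29, 95% interval -1.50 to -0.15, adjusted p = 0.0692) did not pass the test.

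**Figure D2:**
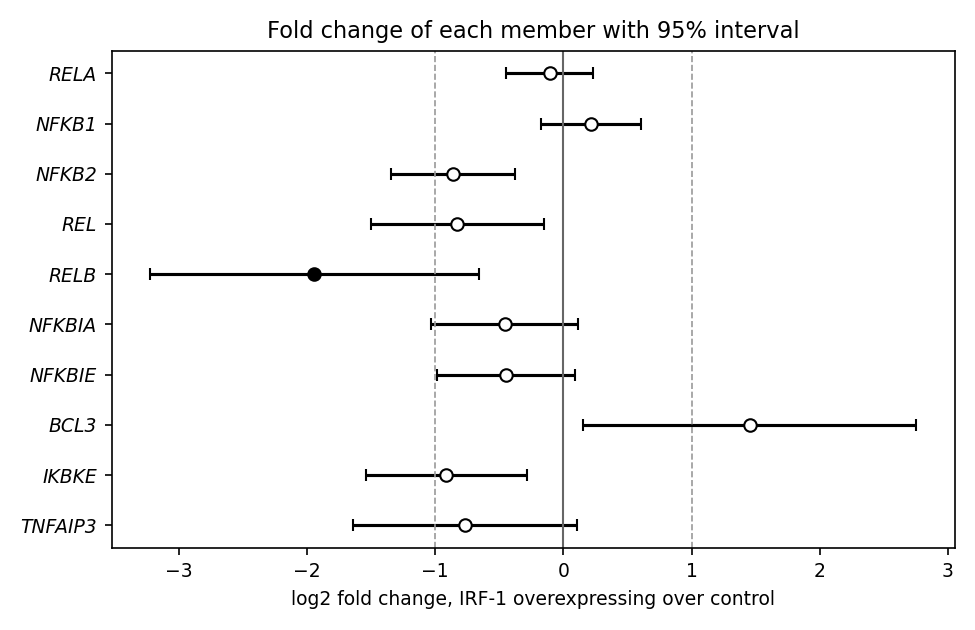
Fitted log2 fold change of each member in IRF-1 overexpressing over control cells (points) with its 95% interval (bars), and dashed lines at the fold limit of 1 in either direction. The filled point is RELB, the gene called lower at -1.94, and open points were not called.

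Because the subunits differ in length, their make-up was described as shares of the FPKM summed over the 5 subunit genes. The sum itself was 19.5 and 22.0 FPKM in the overexpressing replicates and 25.8 and 23.8 FPKM in the controls. RELA took 40.8% and 41.2% of it in the overexpressing libraries against 35.4% and 38.8% in the controls. NFKB1 took 36.5% in each overexpressing library against 25.9% and 26.8%, and NFKB2 17.6% and 17.3% against 28.7% and 24.3%. In the controls NFKB1 and NFKB2 thus stood near parity, with an FPKM ratio of 0.903 and 1.10, whereas the ratio was 2.07 and 2.11 in the overexpressing libraries. Because RELA and NFKB2 share exon bases with opposite-strand genes, these shares and ratios may depend on how such reads were counted.

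The minor subunits also held smaller shares with IRF-1. REL took 4.33% and 2.99% with IRF-1 against 5.06% and 5.75% without. RELB took 0.833% and 2.06% against 5.02% and 4.41%. For each of the 5 subunits the shares of the groups did not overlap. Shares of one sum move together by construction, and they were not tested.

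**Figure D3:**
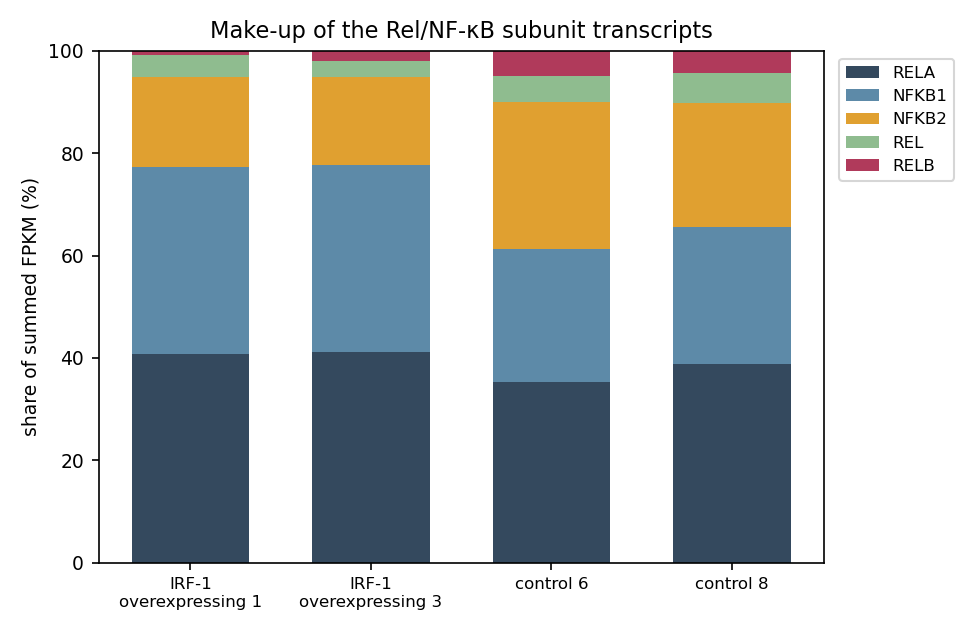
Share of each subunit gene in the summed FPKM of RELA, NFKB1, NFKB2, REL and RELB, with 1 stacked bar per library from 0 to 100%. The NFKB2 segment is 17.6% and 17.3% with IRF-1 and 28.7% and 24.3% without.

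Among the inhibitors, NFKBIA (ENSSSCG00000001952; chromosome 7, plus strand, 64507743 to 64511304) encodes the IκB protein that is degraded and resynthesised in each canonical response. Its counts were 196 and 166 in the overexpressing replicates and 185 and 174 in the controls, which was 7.93 ± 0.0647 CPM against 10.9 ± 1.34 CPM (SD, n = 2 each). The overexpressing libraries were nearly equal and lay below both controls. A log2 fold change of -0.46 (standard error 0.247, 95% interval -1.03 to 0.12) did not pass the test (adjusted p = 0.208).

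NFKBIE (ENSSSCG00000001703; chromosome 7, minus strand, 39255075 to 39263367), which encodes the epsilon form of IκB, had 259 and 182 counts in the overexpressing replicates and 209 and 224 in the controls. In CPM the groups were at 9.58 ± 1.18 and 13.1 ± 0.401 (SD, n = 2 each), again with the overexpressing libraries lower. A log2 fold change of -0.45 (standard error 0.232, 95% interval -0.99 to 0.09, adjusted p = 0.189) was nearly that of NFKBIA and likewise did not pass.

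BCL3 (ENSSSCG00000027426), an atypical IκB protein that binds NFKB1 or NFKB2 homodimers in the nucleus and can activate transcription through them, was the member with the highest fold change. It lies on chromosome 6, plus strand, from 51255938 to 51265354, on the same strand as RELB and 179360 bases before it, with 10 other genes of the table between them. Its counts were 71 and 31 in the overexpressing replicates and 17 and 9 in the controls. This was 2.17 ± 0.966 CPM against 0.801 ± 0.405 CPM (SD, n = 2 each), and within each group 1 library had about the double of the other. The overexpressing libraries were higher without overlap, but the log2 fold change of 1.45 (standard error 0.559, 95% interval 0.15 to 2.75, adjusted p = 0.0909) did not pass the test at this depth. With no filter on low counts it was 1.47 and passed (adjusted p = 0.0333). Without overexpressing replicate 1 it was 0.91 and without control replicate 6 it was 2.07, the lowest and highest values over the alternatives. BCL3 was not called in the other 12 alternatives that refit the fold change.

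IKBKE (ENSSSCG00000015644; chromosome 9, plus strand, 67123265 to 67147989) encodes an IKK-related kinase that acts in innate immune signalling, where it phosphorylates interferon regulatory factors as well as NF-κB components. Its counts were 281 and 195 in the overexpressing replicates and 371 and 267 in the controls. In CPM this was 10.3 ± 1.37 against 19.5 ± 5.99 (SD, n = 2 each), with control replicate 6 well above control replicate 8 and both above the overexpressing libraries. The log2 fold change of -0.91 (standard error 0.269, 95% interval -1.54 to -0.29, adjusted p = 0.038) passed the adjusted p and not the fold limit. It was -1.19 and called lower without control replicate 8 and -0.56 without control replicate 6, the lowest and highest values over the alternatives. The adjusted p did not stay under 0.05 in all of them.

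TNFAIP3 (ENSSSCG00000004154; chromosome 1, minus strand, 26473935 to 26489776) encodes a deubiquitinase and ubiquitin ligase that ends signalling at the receptor complexes. Its counts were 79 and 62 in the overexpressing replicates and 60 and 116 in the controls. This was 3.08 ± 0.141 CPM against 5.23 ± 1.97 CPM (SD, n = 2 each). The groups did not overlap, but control replicate 6, at 3.84 CPM, was nearer to the overexpressing libraries than to control replicate 8, at 6.63 CPM. The log2 fold change of -0.77 (standard error 0.375, 95% interval -1.64 to 0.10, adjusted p = 0.168) did not pass the test. Without control replicate 6 it was -1.11 and called lower, and without control replicate 8 it was -0.31, the lowest and highest values over the alternatives. TNFAIP3 was not called in the other 12 alternatives that refit the fold change.

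The rest of the pathway was read from gene lists by role. Among other IκB proteins and inhibitors, 17 of 17 listed genes were found and 16 were tested, of which 0 rose and 1 fell, with a median log2 fold change of -0.09. DESeq2 and limma-voom also gave 0 higher and 1 lower, and at an unadjusted p under 0.05 there were 2 with a positive and 4 with a negative fold change. The gene that fell was PDLIM2, whose product targets nuclear RELA for degradation. Counts of 22 and 37 in the overexpressing replicates stood against 228 and 126 in the controls (log2 fold change -3.04, standard error 0.49, adjusted p = 0.00362). Both overexpressing libraries were far below both controls. Without control replicate 8, NFKBIZ (-1.91, adjusted p = 0.0206) and NKIRAS1 (-1.17, adjusted p = 0.0331) were called lower too, and without control replicate 6 the median was 0.13. The most abundant genes of the list per length were COMMD1 at 40.8 FPKM, whose log2 fold change of -0.06 turned positive without overexpressing replicate 1 (0.06) and without control replicate 6 (0.37), and NFKBIB, which encodes the beta form of IκB, at 37.0 FPKM with a log2 fold change of 0.46 (adjusted p = 0.0454).

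In the IKK complex and upstream kinases, 18 of 20 listed genes were found and tested. None was called by edgeR, DESeq2 or limma-voom (0 higher and 0 lower each), with 3 lower and 0 higher at an unadjusted p under 0.05, and the median log2 fold change was -0.07. Without control replicate 8, IKBIP was called lower at -1.17 (adjusted p = 0.000795), and without control replicate 6 the median was 0.07. CHUK and IKBKB, the catalytic subunits, had log2 fold changes of 0.22 and -0.07, and the regulatory subunit gene IKBKG had -0.20 (adjusted p = 0.426, 0.803 and 0.531). MAP3K14, the kinase that starts the noncanonical route, had 314 and 222 counts in the overexpressing replicates and 172 and 138 in the controls, and its libraries overlapped between the groups in CPM. These 4 genes were picked for their roles after the values had been seen. FBXW11, part of a ubiquitin ligase for phosphorylated IκB, and MAP3K7, the kinase upstream of the IKK complex, were the most abundant per length, at 18.8 and 16.6 FPKM, and were not called.

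Adaptors and ubiquitin ligases were tested for 20 of 24 genes found out of 30 listed, with 1 higher, 3 lower and a median log2 fold change of -0.30. With glmTreat, which tests the fold limit itself, 0 were higher and 0 lower, and PELI1 and TRAF5 had an adjusted p of 0.367 and 0.0804. PELI1, a ubiquitin ligase of Toll-like and interleukin-1 receptor signalling, had 2358 and 1736 counts in the overexpressing replicates and 572 and 759 in the controls, and rose (log2 fold change 1.16, standard error 0.157, adjusted p = 0.00179). The 3 genes that fell were TRAF5, an adaptor of TNF receptors (log2 fold change -1.41, adjusted p = 0.0019), TIRAP, an adaptor of Toll-like receptors (-1.92, adjusted p = 0.0368), and IRAK2, a kinase of the same route (-1.61, adjusted p = 0.0339). TRAF5 had 537 and 390 counts in the overexpressing replicates against 959 and 809 in the controls, whereas TIRAP (13 and 21 against 62 and 32) and IRAK2 (16 and 12 against 33 and 29) were low in all 4 libraries. TIRAP lost its call when either overexpressing replicate or control replicate 6 was left out, with an adjusted p up to 0.218 over the alternatives. IRAK2 lost its call whichever library was left out, with an adjusted p up to 0.189, and with DESeq2 (adjusted p = 0.124). MALT1 was called lower without control replicate 6 (-1.08, adjusted p = 0.0216) and TRAF1 without control replicate 8 (-2.02, adjusted p = 0.0167). TIRAP also shares 862 exon bases with DCPS on the same strand. UBE2V1 and IRAK1, the most abundant of the list at 72.6 and 24.3 FPKM, were not called.

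Receptors upstream of NF-κB moved in both directions. Of 31 genes found out of 32 listed, 20 were tested, 7 were higher and 6 were lower, with a median log2 fold change of -0.38. Of all genes tested, 8.61% were higher and 10.6% lower. With 1 library left out the receptors numbered 5 to 6 higher and 4 to 6 lower, and the median lay between -0.48 and -0.08, nearest to 0 without control replicate 8. NOD2 was called lower without control replicate 8 (-2.19, adjusted p = 0.0318). DESeq2 gave 5 higher and 5 lower, and glmTreat 4 and 4. TLR1, TLR5 and TLR6, at no more than 41 counts in any library, each lost their call with DESeq2 and when either overexpressing replicate was left out. TLR10, at 29 and 26 counts in the overexpressing replicates and 0 and 1 in the controls, was called higher and kept its call in these fits. With a log2 fold change of 5.06 (adjusted p = 0.00486), it was at least 6.65-fold above a floor of 3 counts in each control library. TLR3, the endosomal receptor for double-stranded RNA, had 385 and 188 counts in the overexpressing replicates and 12 and 6 in the controls (log2 fold change 4.47, standard error 0.489, adjusted p = 0.000882). Also higher were IL1RAP and IL1R1, which together form the interleukin-1 receptor (2.14, adjusted p = 0.00345, and 2.01, adjusted p = 0.00939), and TNFRSF1B, a TNF receptor (1.89, adjusted p = 0.00159). IL1R1 was at 78 and 77 counts against 13 and 15, and lost its call without overexpressing replicate 3, at 1.89 (adjusted p = 0.0546).

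Among the receptors that fell, LTBR, the lymphotoxin receptor, had 38 and 50 counts in the overexpressing replicates and 198 and 155 in the controls (log2 fold change -2.46, standard error 0.366, adjusted p = 0.00259). CD40 had 27 and 49 counts against 186 and 164 (-2.64, standard error 0.417, adjusted p = 0.00337). For both, every overexpressing library was far below every control library. TNFRSF12A, the receptor of TWEAK, had 67 and 158 counts against 569 and 481 (-2.65, adjusted p = 0.00393), and TNFRSF19 343 and 443 against 926 and 999 (-1.73, adjusted p = 0.00149). With each library left out in turn, the log2 fold change of TNFRSF12A lay between -3.56 and -2.06, and that of CD40 between -3.28 and -2.16. The most abundant receptors per length, IL17RA at 27.1 FPKM and TNFRSF21 at 19.5 FPKM, were not called.

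Among ligands, 12 of 18 listed genes were found and 4 had enough counts to be tested, of which 1 was higher and 2 were lower, with a median log2 fold change of -1.10. TNFSF13B (BAFF) rose from 11 and 15 counts in the controls to 472 and 402 in the overexpressing replicates (log2 fold change 4.60, standard error 0.3, adjusted p = 0.000195). IL18 had 21 and 34 counts in the overexpressing replicates and 126 and 91 in the controls (-2.43, adjusted p = 0.00647). TNFSF12, the gene of TWEAK, had 28 and 59 against 107 and 134 (-1.88, adjusted p = 0.0185), but shares 2385 exon bases with TNFSF13 on the same strand and lost its call without overexpressing replicate 1 (adjusted p = 0.0882). Of the genes found, 8 had no more than 3 counts in any library, among them LTA and IL1A, and 4 of these had no count at all. One of the 4 is TNFSF13, all of whose 2385 exon bases are shared with TNFSF12, so its 0 may come from the counting.

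Textbook target genes of NF-κB were mixed as well. Of 33 found out of 36 listed, 21 were tested, with 4 higher, 7 lower and a median log2 fold change of -0.34, which ranged from -0.60 to 0.08 with each library left out in turn and was positive without control replicate 6. Between 3 and 6 were then higher and between 5 and 7 lower. Calls gained were CCND1 (1.30, adjusted p = 0.000269) and PLAU (2.52, adjusted p = 0.0187), both higher without control replicate 6, and LIF, lower without overexpressing replicate 3 (-3.05, adjusted p = 0.0478). With all libraries, the genes that rose were PSMB9, TAP1, CFLAR and CCL2. PSMB9, an immunoproteasome subunit, and TAP1, a peptide transporter, are also textbook targets of IRF-1. PSMB9 had 1090 and 743 counts in the overexpressing replicates and 71 and 33 in the controls (log2 fold change 3.64, standard error 0.371, adjusted p = 0.000686). TAP1 had 2641 and 1798 against 628 and 664 (1.30, adjusted p = 0.00119), and the pair shares 327 exon bases on opposite strands. CFLAR, an inhibitor of caspase activation, had 1055 and 642 against 145 and 163 (1.98, adjusted p = 0.000916). CCL2, a chemokine named after its values were seen, had 43 and 11 counts against 0 in both controls and was at least 6.22-fold higher than a floor of 3 counts in each control library, or at least 2.91-fold with overexpressing replicate 3 alone.

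Among the targets that fell, F3, which encodes tissue factor, had 40 and 32 counts in the overexpressing replicates and 372 and 110 in the controls (log2 fold change -3.25, standard error 0.608, adjusted p = 0.00672). GADD45B had 69 and 64 against 681 and 168 (-3.18, adjusted p = 0.00895), and IER3 21 and 16 against 162 and 74 (-3.16, adjusted p = 0.00391). For all 3 genes control replicate 6 was the highest library, and without it the log2 fold changes were -1.995, -1.72 and -2.38, still called lower. F3 shares 1394 exon bases with ABCD3 on the opposite strand.

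MYC had 27 and 39 counts against 152 and 72 (-2.23, adjusted p = 0.0151). Its call was lost without overexpressing replicate 1 (adjusted p = 0.0811) and without control replicate 6 (adjusted p = 0.0511). The cells also carry an introduced MYC, which was not separated here. SOD2, a mitochondrial superoxide dismutase and the most abundant target at 84.5 FPKM, had a log2 fold change of 0.57 (adjusted p = 0.0374), under the fold limit. IL6, CXCL8 and CXCL10 had at most 4 counts in any library and were not tested.

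**Figure D4:**
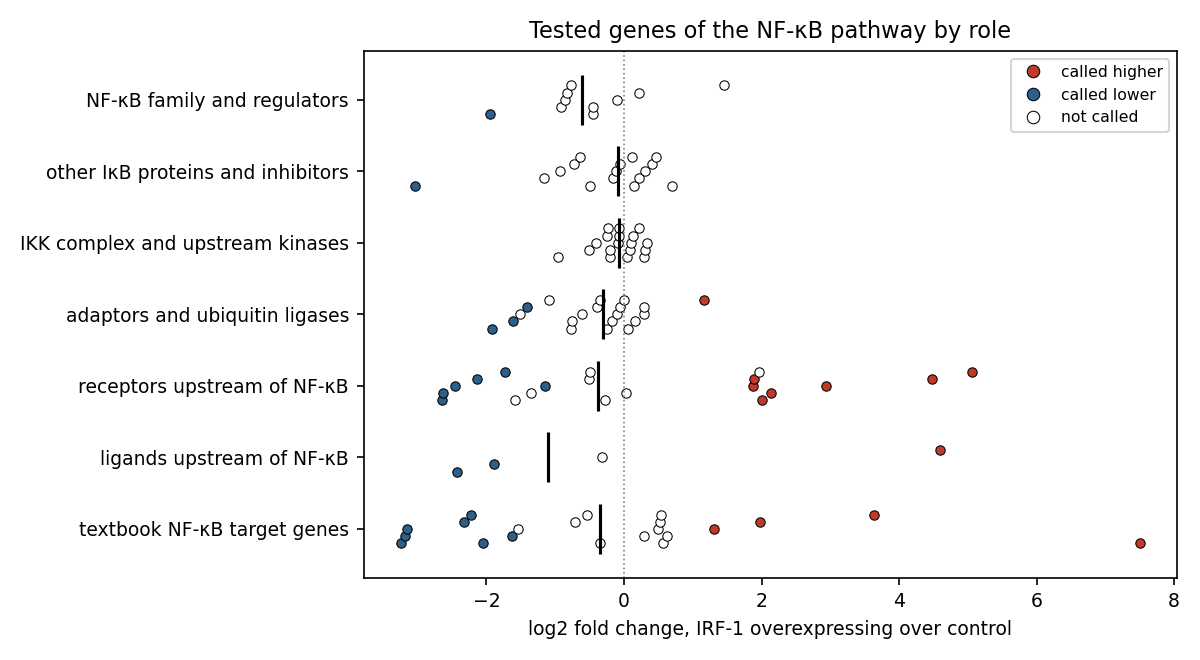
Fitted log2 fold change of each tested gene, with 1 row per gene list, red for genes called higher, blue for genes called lower, open for genes not called, and a vertical bar at the median of each list. Receptors lie on both sides of 0, from -2.65 (TNFRSF12A) past 4.47 (TLR3), whereas kinases lie between -0.97 and 0.33, and the target gene farthest to the right is CCL2, which had 0 counts in both controls.

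Marker genes of the cell types that the cultures could hold were read beside these results. In bulk RNA, fewer cells of a type and less RNA per cell cannot be told apart. Of 14 listed pluripotent stem cell markers, 9 were found and 6 tested, with 0 higher and 3 lower. DESeq2 and limma-voom likewise gave 0 higher. At an unadjusted p under 0.05 there were 0 with a positive and 3 with a negative fold change. Their summed level was 1313 and 1347 CPM in the overexpressing replicates and 1544 and 1708 CPM in the controls. DNMT3B made up the largest part of these sums with 932 CPM on average, and its log2 fold change of 0.27 was not called. Per length LIN28A was the most abundant, at 500 FPKM against 86.3 FPKM for DNMT3B. Without DNMT3B the sums lay further apart, at 279 and 342 CPM with IRF-1 against 850 and 712 CPM. ESRRB had 31 and 37 counts against 502 and 402 (log2 fold change -4.19, adjusted p = 0.000246), CDH1 631 and 1539 against 3753 and 4062 (-2.25, adjusted p = 0.00676), and LIN28A 4071 and 3875 against 7905 and 6677 (-1.34, adjusted p = 0.00146). NANOG was low, with 8 and 11 counts in the overexpressing replicates and 5 and 9 in the controls, and PRDM14 had no count in any library.

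Fibroblast and feeder cell markers, which matter because the cells came from fibroblasts and grew on feeders, were found for 15 of 16 listed genes. Of 8 tested, 1 was higher and 5 were lower, with a median log2 fold change of -1.72. Their summed level was 1202 and 982 CPM in the overexpressing replicates and 1418 and 1250 CPM in the controls, of which VIM made up the largest part with 1016 CPM on average. PDGFRB had 28 and 62 counts against 1966 and 978 (log2 fold change -5.49, adjusted p = 0.000595), and S100A4, COL1A1 and FBLN1 also fell (-2.40, -1.97 and -1.48). DCN, at 3 and 1 counts against 19 and 19, was also lower, with the call lost without overexpressing replicate 3 (adjusted p = 0.0557). COL1A2 rose, with 3458 and 1690 counts against 1006 and 699 (1.08, adjusted p = 0.0301), and lost its call without overexpressing replicate 1, at 0.65, and without control replicate 8, at 0.78. COL6A3, LUM and DPT had at most 3 counts in any library. VIM itself was not called, at a log2 fold change of -0.20 (adjusted p = 0.31). Most fibroblast markers tested were lower, as was RELB, but so were 3 of the 6 pluripotent stem cell markers tested. The part of these cell types in the result was not tested.

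Leukocyte markers were found for 19 of 20 listed genes. Among the 8 tested, LCP1 was higher and ITGB2 was lower. The list summed to 252 and 179 CPM in the overexpressing replicates against 96.3 and 66.3 CPM in the controls, but without LCP1 the order was opposite, at 18.5 and 29.5 CPM against 94.3 and 65.1 CPM. LCP1, an actin-bundling protein, was the most abundant on average with 96.5 CPM, and had 5809 and 3105 counts against 30 and 21. ITGB2 had 181 and 352 counts against 1214 and 942 (log2 fold change -2.45, adjusted p = 0.00303). Not called, but counted in all 4 libraries, were CD68 (148 and 135 against 126 and 100), CD79A (47 and 59 against 28 and 19), SPI1 (36 and 31 against 37 and 27), CSF1R (23 and 20 against 28 and 24) and ITGAM (19 and 3 against 17 and 11). CD79A shares 3229 of its 5179 exon bases with ARHGEF1 on the same strand, and CSF1R 2813 of 6666 with HMGXB3 on the opposite strand, so their counts may belong in part to these neighbours. The defining markers CD3E, MS4A1 and LYZ had no count in any library, and PTPRC had 1 count in control replicate 8 and none in the others.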

How the data were processed

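RNA-seq of 2 IRF-1 overexpressing and 2 control libraries was used, and the ChIP-Seq libraries were not analysed here. The authors deposited a table of raw read counts by gene and library, unnormalized, with exon coordinates and an exon length in bases. According to the methods and the submitters' processing notes, reads were trimmed with trim_galore, mapped to Sus scrofa 11.1 with HISAT2 2.0.4 and counted with featureCounts 1.6.4. A second counting tool, htseq-count, is named in the methods too, and the layout of the deposited table is that of featureCounts. The sources used here do not give the annotation release, whether counting was stranded, or how multi-mapped reads were handled, so shared exon bases are stated where a named gene has them.

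Of the 24358 identifiers, 14692 had a symbol in the table of gene names. Counts were analysed with edgeR 4.0.16 in R 4.3.3 (TMM factors between 0.982 and 1.02, filterByExpr by group, quasi-likelihood fit and test, Benjamini-Hochberg adjustment over 13250 genes). The standard error is the size of the log2 fold change over the square root of F, and each SD is over 2 libraries. FPKM is CPM per kilobase of the deposited exon length. Lists are described by counts and medians, with no set test. Fold bounds were set against a floor of 3 counts per library. They applied where 1 group had at most 3 counts in each library and the other had more in each.

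The members and lists were chosen with earlier results of these data known. Named genes are IRF1, the members, in each list up to 4 called genes in each direction with a mean of at least 1 CPM, and the 2 genes with the highest FPKM. Others (CCL2, DCN, TLR1, TLR5, TLR6, TLR10, NFKBIZ, NKIRAS1, IKBIP, CD68, CD79A, SPI1, CSF1R, ITGAM, CCND1, PLAU, LIF, MALT1, TRAF1, NOD2, the IKK subunits, MAP3K14 and genes given for low counts) were chosen after their values were seen. Some single-gene results are not reported here. The 14 alternatives were other normalizations, other filters, DESeq2 1.42.0, limma-voom (limma 3.58.1), glmTreat, no fold limit, counts without mitochondrial and the 10 most counted genes, and each library left out in turn. The fit was tested on simulated counts with a common dispersion of 0.0313 for every gene, which leaves out variance that differs between genes. Promoter and protein sequences were not used here. Plots were drawn with Python 3.11.15 and matplotlib 3.10.9.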

Additional observations from a re-analysis of the deposited data

How the results depend on the processing

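All 10 members kept the sign of their log2 fold change under the 13 alternatives that refit it, and 5 of them (RELA, NFKB1, REL, NFKBIA and NFKBIE) kept the same side of the threshold throughout. Without a filter on low counts, 1 member (BCL3) was called higher. With glmTreat, which tests the fold limit itself, 0 members were lower (RELB had an adjusted p of 0.19), and 611 genes were higher and 603 lower overall. With no fold limit, 3 members (RELB, NFKB2 and IKBKE) were lower, and over all genes 1842 were higher and 2054 lower. When 1 library was left out, 0 to 3 members were lower, 0 were higher, between 756 and 1156 of all genes were higher and between 874 and 1548 were lower, the fewest without overexpressing replicate 1. These fits hold 1 library in a group, which is assumed to vary like the others. The median of the members stayed between -0.67 and -0.49 over all 14 alternatives. The cause of these changes was not tested, beyond the smaller number of libraries. RELB and BCL3 had between 9 and 71 counts in each library. No paired analysis was possible because the groups share no replicate number. The descriptions planned for promoter and protein sequences were not run.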
